A study of Mus musculus with 32 samples.

Results

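Complement is a cascade of proteins that mark and lyse targets and recruit phagocytes, and this report follows 9 of its genes, C1qa, C1qb, C1qc, C1ra, C2, C3, C4b, Cfb and Serping1, in tumors and lungs of mice with and without Clic4. The genes were chosen for their place in the pathway and by no rule on their values, although earlier results of these data were known. They are 9 of the 29511 genes in the count table, and all 9 passed the filter on low counts in tumors and in lungs.

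The hosts were virgin female FVB/N mice of 6 to 8 weeks, either Clic4 knockout (KO) or wildtype (WT), bred as littermates from heterozygous parents. The KO is constitutive, so that Clic4 is deleted in all host cells and not in 1 cell type, and it was crossed onto FVB/N. 6DT1 cells, a line from a mouse mammary tumor of the same strain, were placed in the fourth mammary fat pad, and these cells carry Clic4 in both kinds of host. RNA was sequenced from 6 tumors of KO and 6 of WT hosts at 14 days, from lungs of 6 KO and 6 WT tumor-bearing mice at 14 days, labelled as pre-metastatic, and from lungs of 4 KO and 4 WT tumor-free control mice. The labels do not say which tumor and lung came from the same mouse.

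In the classical pathway, C1q binds immune complexes, dying cells or microbes and activates the proteases C1r and C1s, which cleave C4 and C2 into the C3 convertase. Factor B joins cleaved C3 to form the convertase of the alternative pathway, which amplifies the cascade, and the C1 inhibitor, the product of Serping1, blocks C1r and C1s. The liver makes most plasma complement, whereas macrophages are a main source of C1q in tissues, and fibroblasts, epithelial cells and macrophages make other components locally, in part under interferon gamma.

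The samples held 4446323 to 8318711 counts assigned to genes, and none of the 72 replicate pairs looked like the same library deposited again (chi-squared per degree of freedom of 2.43 to 15.0). Clic4, the targeted gene, had 58.2 to 74.6 FPKM in the 14-day KO lungs and 155 to 230 FPKM in the 14-day WT lungs, a log2 fold change of -1.49 (SE 0.09, n = 6 and 6, edgeR FDR = 2.06e-09). The reads that remained in KO tissue were not split by exon here. The study states that reads of Clic4 in KO lungs map outside the deleted stretch around exon 2. It did not detect CLIC4 protein in KO lung fibroblasts. Lung epithelium markers summed to 32329 to 38851 FPKM in lungs and to at most 3.24 FPKM in tumors. Hepatocyte markers summed to at most 2.17 FPKM in any sample. FPKM, fragments per length of transcript and depth, is the unit of all levels given here, and all fold changes and adjusted p values (FDR) are from edgeR's quasi-likelihood test unless another tool is named.

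The 9 genes lie on 4 chromosomes (GRCm38). C1qb (136880129 to 136886187), C1qc (136889804 to 136893065) and C1qa (136895917 to 136898803) sit side by side on the minus strand of chromosome 4, within 18675 bases. Clic4 is on the same chromosome, from 135213969 to 135272814, and ends 1.607 Mb before C1qb starts. C4b (34728380 to 34743882), Cfb (34856374 to 34862518) and C2 (34862604 to 34898265) lie on the minus strand of chromosome 17 in the major histocompatibility region, with 86 bases between the end of Cfb and the start of C2. C3 is further along chromosome 17 (57203970 to 57228136), C1ra is on chromosome 6 (124512405 to 124523443) and Serping1 is on chromosome 2 (84765387 to 84775444). C4b has a near-identical neighbour, C4a, and C1ra has C1rb, so reads may be split within each pair and the levels of these genes are less certain.

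**Figure D1:**
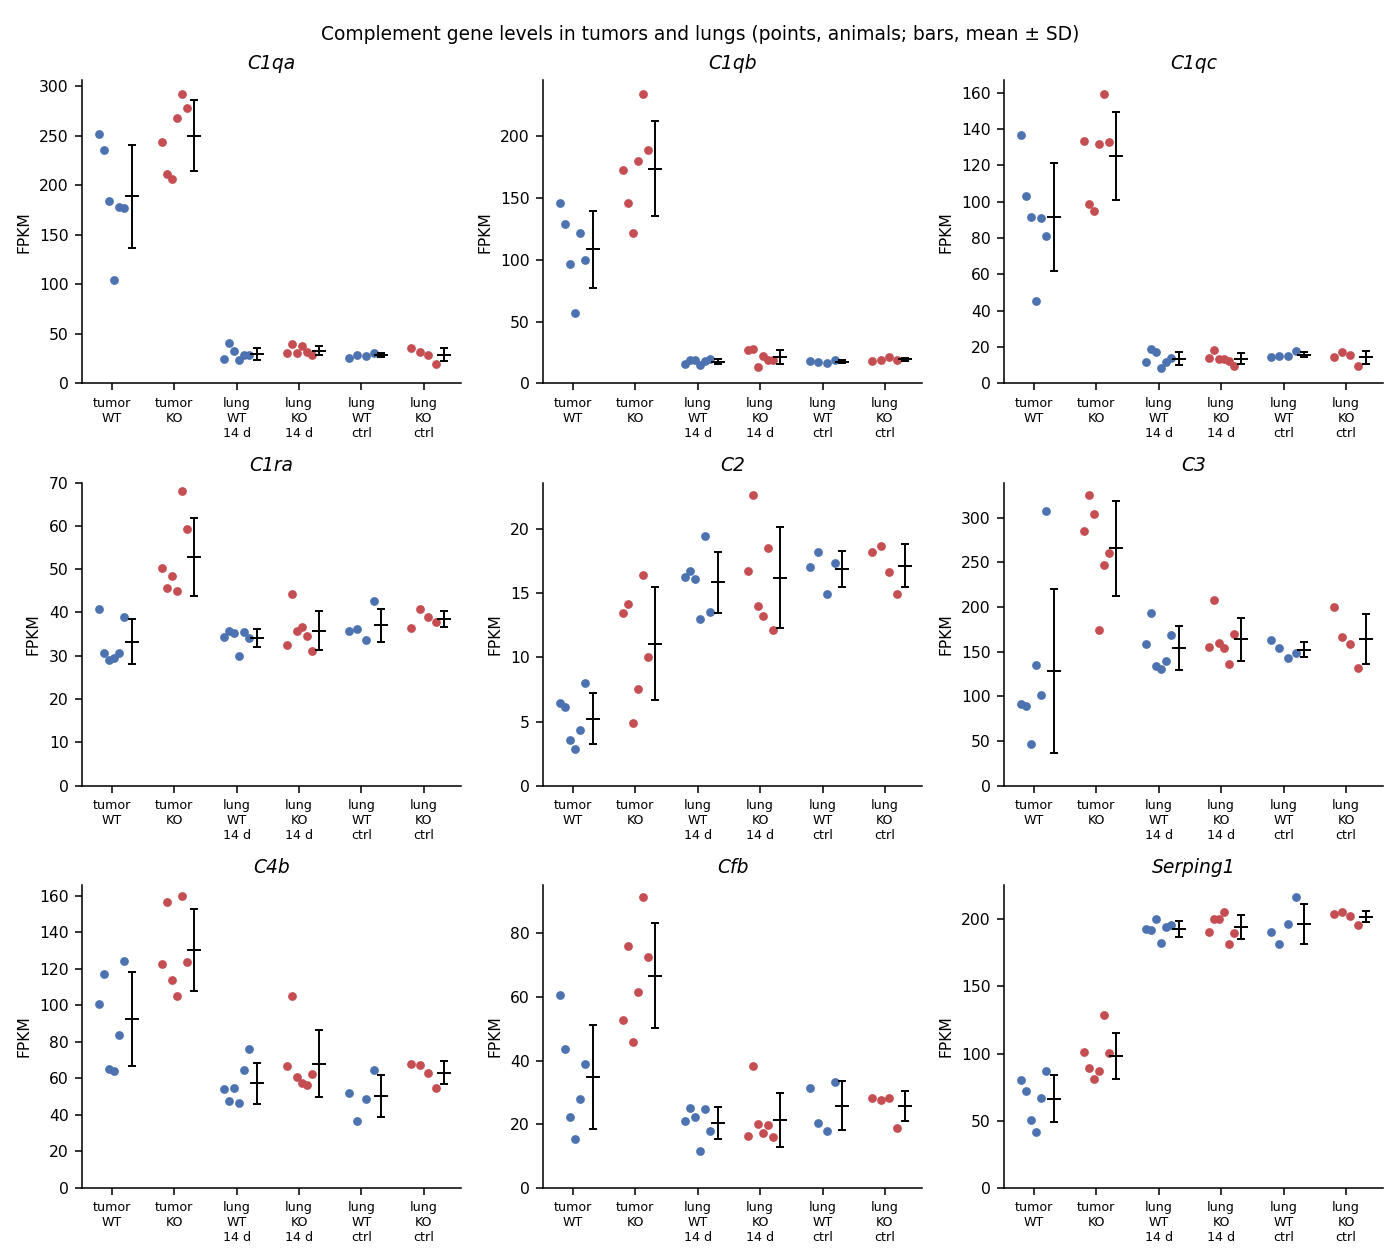
FPKM (linear axes from 0) of the 9 complement genes in each animal, with KO hosts in red and WT hosts in blue and bars for the mean ± SD of each group. The 3 C1q genes stood far higher in tumors than in lungs, Serping1 and C2 stood lower in tumors, and the lung groups overlapped for every gene in each comparison by host or by tumor.

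Tumor and lung tissue differed in which complement genes were abundant, as the plot of levels by group shows. C1q is built from 3 chains encoded by C1qa, C1qb and C1qc. C1qa ranged from 105 to 293 FPKM over the 12 tumors (median 224) and from 19.7 to 40.6 FPKM over the 20 lungs (median 29.6). C1qb ranged from 57.0 to 234 FPKM in tumors and from 13.4 to 27.5 FPKM in lungs. C1qc ranged from 45.4 to 159 FPKM in tumors and from 8.51 to 18.8 FPKM in lungs. All 3 chains were thus separate between the tissues, with tumor means 7.25, 7.40 and 7.67 times the lung means. In WT hosts at 14 days the log2 fold change of tumor over lung was 2.71 (SE 0.15) for C1qa, 2.66 (SE 0.19) for C1qb and 2.78 (SE 0.20) for C1qc.

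The inhibitor gene Serping1 went the other way, with 41.8 to 129 FPKM in tumors and 181 to 217 FPKM in lungs, a log2 fold change of -1.48 (SE 0.12) in WT hosts. Its coefficient of variation over the 20 lungs was 4.56%, the lowest of the 9 genes. C2, which encodes the protease part of the classical C3 convertase, had 2.84 to 16.4 FPKM in tumors and 12.1 to 22.7 FPKM in lungs, with a log2 fold change of -1.75 (SE 0.24) in WT hosts. These 5 genes differed by 2-fold or more at an FDR of 0.05, 3 higher and 2 lower in tumors. Of the 16115 tested genes 38.1% did so, 15.9% higher and 22.3% lower, so a share of 5 in 9 is to be read against a large difference between the tissues. C4b (log2 0.72, SE 0.17, FDR = 0.00036) and Cfb (log2 0.59, SE 0.26, FDR = 0.044) passed the FDR limit with less than a 2-fold change. The value of Cfb passed in 13 of the 24 fits that left out a sample, with log2 values from 0.35, without WT tumor replicate 1, to 0.75. C1ra (log2 0.01, SE 0.11) and C3 (log2 -0.24, SE 0.26) were not called. C3 went from -0.07 without WT tumor replicate 3 to -0.71 without WT tumor replicate 6, and the latter was under the FDR limit (FDR = 0.00099) with less than a 2-fold change. In such bulk samples, fewer cells of a type and less RNA per cell cannot be told apart.

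The order of the genes by level therefore changed with the tissue. In WT tumors the highest mean was that of C1qa (189 ± 52.1 FPKM, SD, n = 6), then C3 (129 ± 92.1), C1qb (109 ± 31.2) and C4b (92.5 ± 25.8). By median C1qb (111 FPKM) came before C3 (96.0 FPKM), whose mean includes WT replicate 6 at 308 FPKM. In KO tumors C3 came first (266 ± 53.1 FPKM, SD, n = 6) and C1qa next (250 ± 35.5), and these neighbours overlapped. In all 4 lung groups Serping1 was first, C3 next, then C4b and C1ra, and C1qc was last. In tumors of both hosts C2 was last.

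The comparison of tumors from KO and WT hosts asks whether complement transcripts depend on Clic4 in the host. All 9 genes had higher fitted levels in tumors of KO hosts. The log2 fold change was 0.46 to 1.27, with a median of 0.71, while the median over the 13830 tested genes was -0.01 and 47.7% of them were above 0. C1qb, C1ra, C2 and Cfb rose at an FDR of 0.05, which 2.02% of tested genes passed in this direction. C2 and Cfb also passed a 2-fold change, as did 1.01% of tested genes. The other 5 genes, C1qa, C1qc, C3, C4b and Serping1, did not pass after adjustment, although each had an unadjusted p under 0.05, as 8.95% of tested genes did in this direction. The p-values measure the spread between the samples that the labels give as replicates.

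C1ra encodes C1r, the protease that C1q activates first. It had 45.1 FPKM at the lowest, 49.3 at the median and 68.0 at the highest in the 6 KO tumors, against 29.0, 30.7 and 40.8 FPKM in the 6 WT tumors. Every KO tumor was above every WT tumor, and C1ra was the only one of the 9 genes for which this held. This was so, in this direction, for 1.05% of tested genes. Its log2 fold change was 0.71 (SE 0.12, FDR = 0.0028), a 1.64-fold rise.

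The C1q chains, which start the classical pathway, overlapped between hosts. C1qb had 122 FPKM at the lowest, 176 at the median and 234 at the highest in KO tumors, against 57.0, 111 and 146 FPKM in WT tumors, and 3 WT tumors reached the KO range. Its log2 fold change was 0.73 (SE 0.17, FDR = 0.037). C1qa had 207, 256 and 293 FPKM in KO tumors against 105, 181 and 252 FPKM in WT tumors, so that 2 WT tumors reached the KO range. The fold change of C1qa was 0.46 on the log2 scale (SE 0.15, FDR = 0.13). C1qc had 95.1, 132 and 159 FPKM in KO tumors against 45.4, 91.4 and 137 FPKM in WT tumors, and 2 WT tumors reached the KO range. Its log2 fold change was 0.50 (SE 0.18, FDR = 0.18).

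Among the convertase genes, C2 had 4.85 FPKM at the lowest, 11.8 at the median and 16.4 at the highest in KO tumors, against 2.84, 5.26 and 8.03 FPKM in WT tumors. KO replicates 3 and 4 lay within the WT range, and the counts were low, 55 to 246 in KO and 29 to 89 in WT tumors. The log2 fold change of C2 was 1.27 (SE 0.28, FDR = 0.024), the largest of the 9. Cfb, the gene of factor B, had 45.9, 67.1 and 91.2 FPKM in KO tumors against 15.2, 33.4 and 60.5 FPKM in WT tumors, and 1 WT tumor, replicate 1, reached the KO range. Its log2 fold change was 1.11 (SE 0.26, FDR = 0.031).

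C3 is the component on which all pathways converge. It had 174 FPKM at the lowest, 273 at the median and 325 at the highest in KO tumors, against 47.1, 96.0 and 308 FPKM in WT tumors. WT replicate 6 alone was in the KO range, and the other 5 WT tumors, at 135 FPKM or less, were below all KO tumors. With all tumors the log2 change of C3 was 1.09 (SE 0.34, FDR = 0.12), and without WT replicate 6 it had 1.56 (SE 0.23, FDR = 0.0013). That tumor also had the highest level among WT tumors of the epithelial markers Epcam (11.7 FPKM, the other WT tumors at most 4.04) and Cdh1 (10.5 FPKM, the others at most 2.68). Neither marker passed the test between hosts (Epcam log2 0.67, SE 0.49, and Cdh1 log2 0.68, SE 0.50). Both were singled out after their values were seen, from a list of 4 tumor epithelium markers that also holds Krt8 and Krt18, and for these WT replicate 6 was the lowest WT tumor (180 and 131 FPKM). The sum of the 4, made up mostly of the keratins, was 333 FPKM in WT replicate 6 and 353 to 459 FPKM in the other WT tumors. The part of epithelial cells in the level of C3 was not tested.

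C4b, which encodes C4, had 105, 123 and 160 FPKM in KO tumors against 64.2, 92.3 and 124 FPKM in WT tumors, and 2 WT tumors were in the KO range. Its log2 fold change was 0.57 (SE 0.16, FDR = 0.090). The inhibitor gene Serping1 had 81.3, 94.7 and 129 FPKM in KO tumors against 41.8, 69.5 and 86.9 FPKM in WT tumors, and 1 WT tumor was in the KO range. Its log2 fold change was 0.60 (SE 0.16, FDR = 0.064). The inhibitor of C1r and C1s was thus higher in fitted level along with their genes, but its own change did not pass the adjusted test. DESeq2 called 6 of the 9 genes, where it called 2.69% of 15752 genes in this direction, and gave adjusted p of 0.022 for C4b and 0.013 for Serping1.

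**Figure D2:**
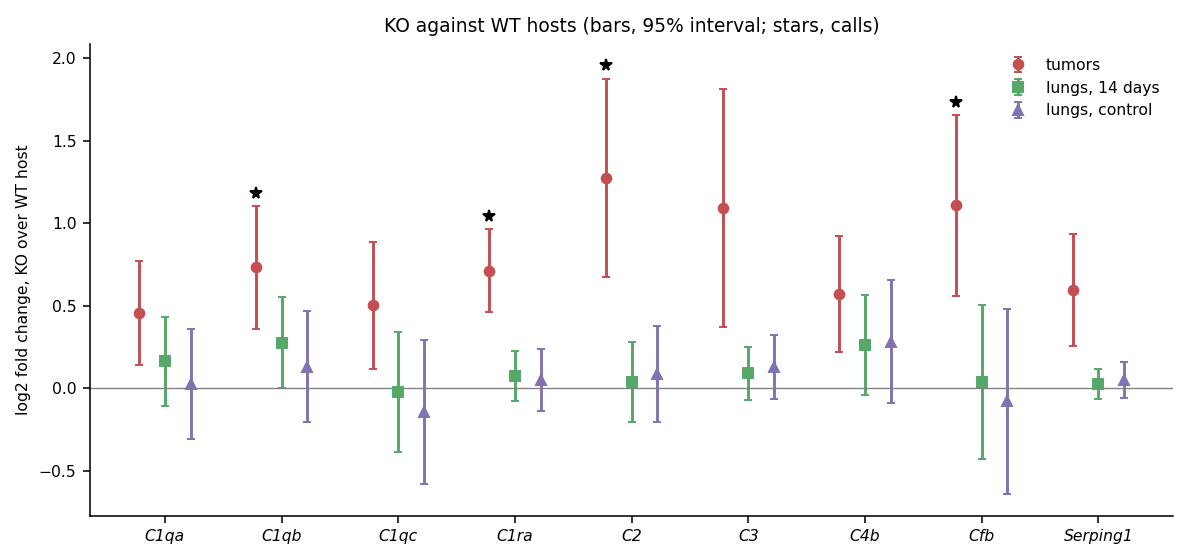
Log2 fold change of KO over WT hosts for each gene in tumors, 14-day lungs and control lungs, with bars of the 95% interval and stars at FDR calls (0.05 in tumors, 0.25 in lungs). The tumor values lie between 0.46 and 1.27 and the lung values between -0.14 and 0.28, with no star in lungs.

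The set of genes that passed changed when single tumors were left out. C1ra passed in all 12 fits that left out a tumor, with an FDR of at most 0.014. C2 and Cfb passed in 6 of the 12 fits, C1qb in 3, C3, C4b and Serping1 in 1, and C1qa and C1qc in none. The number of genes called was 1 without KO replicate 2, 5 or 6 or WT replicate 3 or 5, 2 without WT replicate 2 and 6 without WT replicate 6. The share of all genes called was not computed for fits with a tumor left out. The log2 fold change of each gene was above 0 in every one of these fits, the lowest being 0.35 for C1qa.

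**Figure D3:**
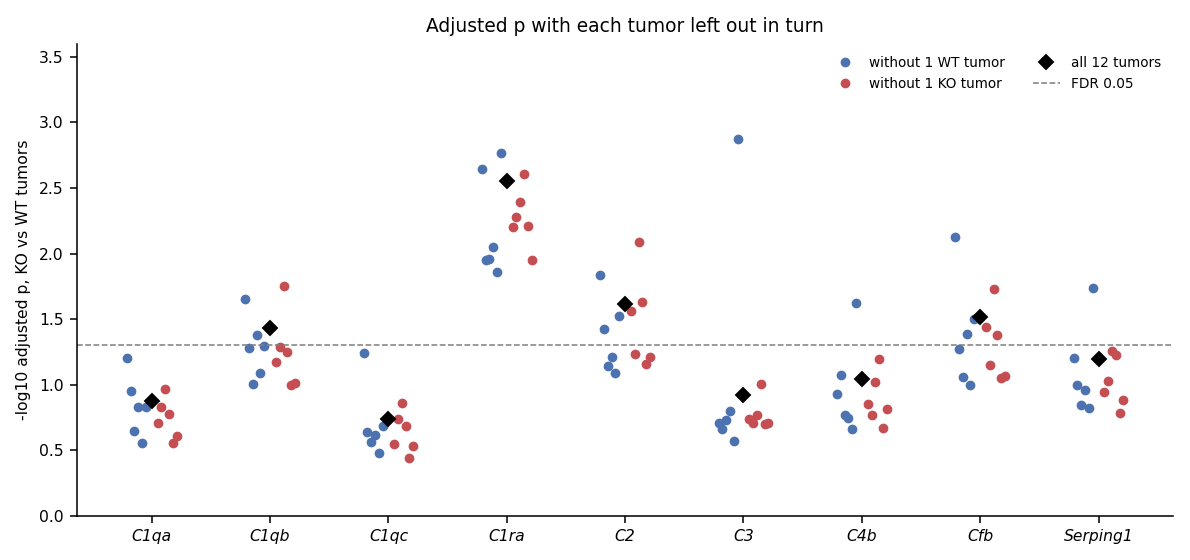
-log10 of the adjusted p of KO against WT tumors for each gene, with all 12 tumors (diamonds) and with each WT (blue) or KO (red) tumor left out, and a dashed line at an FDR of 0.05. C1ra lies above the line in all 12 fits, and C3 crosses it in 1, without WT replicate 6.

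Tumors that were low or high in 1 complement gene were often so in the others. WT replicate 4 was the lowest of the 12 tumors for 7 of the 9 genes, and KO replicate 5 was the highest for 8 of them. The summed level of 8 macrophage markers was 162 FPKM in WT replicate 4 and 332 FPKM in KO replicate 5, the lowest and highest of the 12. The summed level of 8 fibroblast markers was 884 FPKM and 2493 FPKM in the same tumors, again the lowest and the highest. Not all marker sums were extreme in both tumors. Adipocyte markers summed to 119 FPKM in WT replicate 4 and 167 FPKM in KO replicate 5. T and NK cell markers summed to 4.81 FPKM, the lowest, and 21.8 FPKM, below KO replicate 4 (23.4 FPKM). Tumor epithelium markers summed to 359 and 287 FPKM, the latter the lowest of the 12 tumors.

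Between hosts, the macrophage sum ranged from 203 to 332 FPKM in KO and from 162 to 284 FPKM in WT tumors. None of the 8 macrophage markers was called, with log2 fold changes from -0.43 (Mertk) to 0.89 (Aif1, FDR = 0.12) and a median of 0.25. Fibroblast markers summed to 1097 to 2493 FPKM in KO and 884 to 2219 FPKM in WT tumors, and none of 8 was called (median log2 0.12). Tumor epithelium markers summed to 287 to 353 FPKM in KO and 333 to 459 FPKM in WT tumors, and none of 4 was called, with Krt8 (log2 -0.19, SE 0.09) and Krt18 (log2 -0.24, SE 0.08, FDR = 0.16) at an unadjusted p under 0.05. Adipocyte markers summed to 113 to 401 FPKM in KO and 96.5 to 185 FPKM in WT tumors, and none of 5 was called, with log2 values from 0.69 to 1.13. T and NK cell markers had a median log2 of 0.94 with 1 of 6 called (Cd3d, 1.46, FDR = 0.039), and monocyte markers had 1 of 4 called (Plac8, 1.25, FDR = 0.0045). In either direction, an unadjusted p under 0.05 was found for 4 of 8 macrophage, 1 of 8 fibroblast and 4 of 5 adipocyte markers. It was also found for 4 of 6 T and NK cell and 3 of 4 monocyte markers, against 2146 of all 13830 tested genes. On a list of interferon gamma response genes, 15 of 15 rose, with a median log2 of 1.56, where 2.02% of all tested genes rose. The part of these cells and of interferon in the complement values was not tested.

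**Figure D4:**
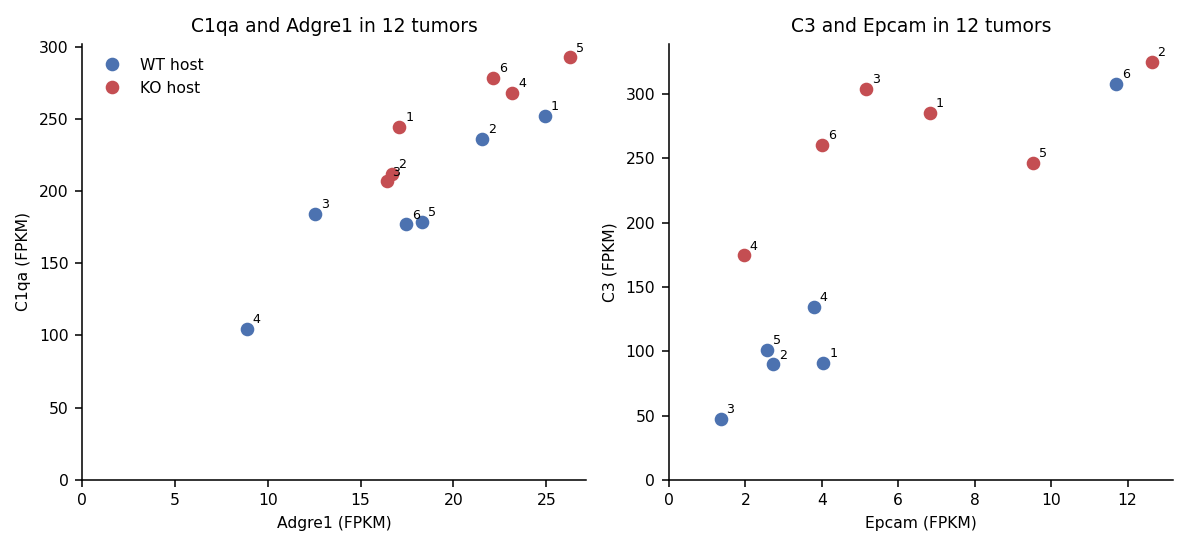
FPKM of C1qa against the macrophage marker Adgre1 (left) and of C3 against the epithelial marker Epcam (right) in the 12 tumors, with numbers for replicates. WT replicate 4 is lowest on both axes at left, and WT replicate 6 lies with the KO tumors at right, while the sum of the 4 tumor epithelium markers (333 FPKM) was lowest among WT tumors there.

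The rest of the pathway was read from a list of 46 other complement genes, of which 44 were in the table, 2 (Mbl2 and C8b) were not analysed here, and 24 could be tested in tumors. C1rb, C1s1 and Itgax rose in tumors of KO hosts, where 2.02% of all tested genes did. None of the 24 fell, and the median log2 fold change was 0.23. C1s1 encodes C1s, the protease that C1r activates, and had 35.4 to 80.3 FPKM in KO against 15.0 to 41.9 FPKM in WT tumors (log2 1.02, SE 0.23, FDR = 0.024). C1rb, the copy of C1ra, had 2.43 to 5.10 FPKM against 1.32 to 2.37 FPKM without overlap (log2 1.14, SE 0.20, FDR = 0.0045). With C1ra, genes of both C1 proteases thus passed.

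Itgax, a chain of complement receptor CR4 that also marks dendritic cells and some macrophages, had 6.67 to 13.1 FPKM in KO against 3.63 to 7.45 FPKM in WT tumors (log2 1.00, SE 0.16, FDR = 0.0018). The partner chain Itgb2 (log2 0.49, SE 0.15) and the anaphylatoxin receptor genes C3ar1 (log2 0.29, SE 0.11) and C5ar1 (log2 0.33, SE 0.13) were not called. Of the alternative pathway, Cfd (log2 0.89, SE 0.33) and Cfp (log2 0.55, SE 0.20) were not called. Of the regulators, Clu was at -0.22 (SE 0.07, FDR = 0.13) and the 4 membrane inhibitors tested were at -0.17 to 0.17, none of them called. Of the terminal components, C6 (log2 1.34, SE 0.40, FDR = 0.11) and Hc, the gene of C5 (log2 -0.09, SE 0.25), could be tested.

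**Figure D5:**
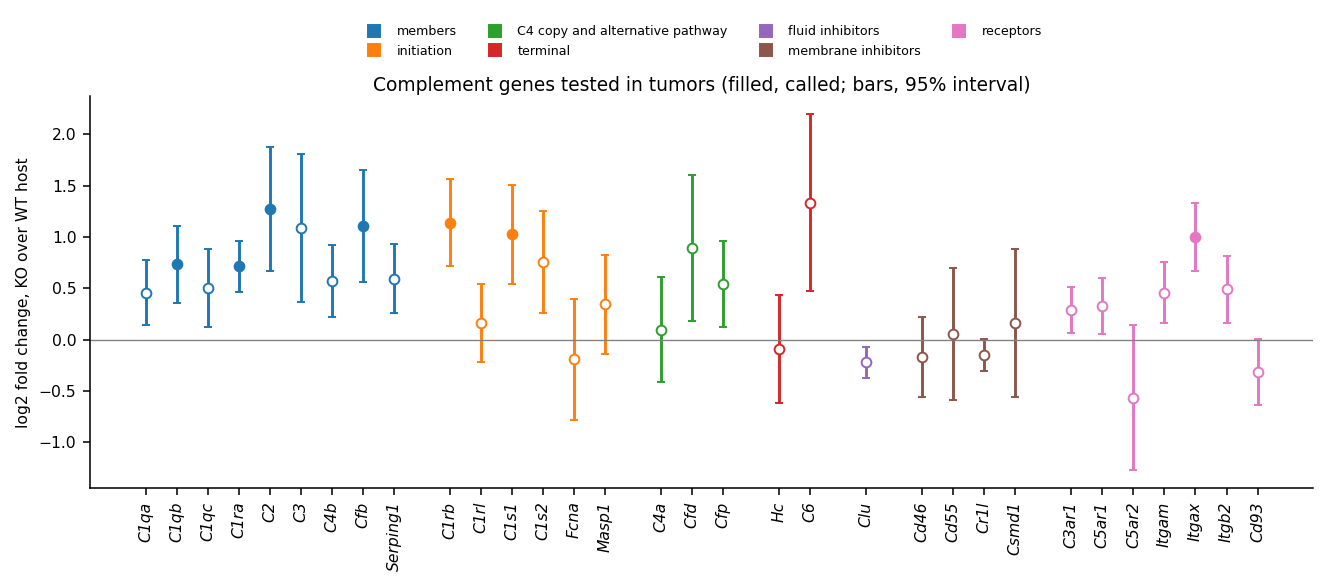
Log2 fold change of KO over WT tumors for the 9 genes and all but 1 of the 24 other complement genes tested, by role, with bars of the 95% interval and filled points for an FDR under 0.05. The filled points are C1qb, C1ra, C2, Cfb, C1rb, C1s1 and Itgax, and the inhibitors shown other than Serping1 lie between -0.22 and 0.17.

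Between tissues, 18 of the 30 other complement genes tested differed by 2-fold or more at an FDR of 0.05 in WT hosts, 8 higher and 10 lower in tumors, against 38.1% of all genes. Fcna, Masp1, Cfd, Cfp, Clu, C3ar1, C5ar1 and Itgam were higher in tumors, and Hc, C6, C7, Vtn, Cpn1, Cd55, Cd59a, Susd4, Itgax and Cd93 were lower. Of the 7 terminal components listed 3 could be tested, and all 3 were lower in tumors, with Hc at 0.50 to 1.79 FPKM in WT tumors and 51.6 to 74.5 FPKM in 14-day WT lungs (log2 -6.52, SE 0.15) and C7 at a log2 of -8.33 (SE 0.21). FVB/N mice are known to lack functional C5, so that the Hc transcript is no measure of its protein. C3ar1, the receptor for C3a, was higher in tumors (log2 3.33, SE 0.14), as was Fcna, a lectin pathway sensor of macrophages (log2 4.48, SE 0.32).

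In lungs, none of the 9 genes was called in any comparison, at an FDR of 0.25. These comparisons share samples, since each of the 4 lung groups enters more than 1 of them. Between KO lungs at 14 days and KO control lungs, where 1.05% of 16029 genes were called, the log2 fold changes ran from -0.18 (C2) to 0.21 (C1qa). In WT lungs, where 2.33% were called, they ran from -0.28 (Cfb) to 0.14 (C4b). The number of genes with an unadjusted p under 0.05 was 0 of 9 in both responses, against 8.64% of all genes in KO and 11.8% in WT lungs.

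Between KO and WT lungs at 14 days, where 0.861% of genes were called, the values ran from -0.02 (C1qc) to 0.28 (C1qb). C1qb had 13.4 FPKM at the lowest, 20.7 at the median and 27.5 at the highest in KO lungs, against 14.7, 18.4 and 19.7 FPKM in WT lungs. KO replicates 1, 2 and 4 lay above all WT lungs, while replicate 3 lay below all of them. The log2 fold change of C1qb was 0.28 (SE 0.13) with an unadjusted p of 0.049 and an FDR of 0.60 by edgeR, and no other gene of the 9 had an unadjusted p under 0.05, as 8.34% of all genes did. DESeq2 called none of the 9 genes either.

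Between control lungs, where 0.973% of genes were called, the values ran from -0.14 (C1qc) to 0.28 (C4b, SE 0.18, FDR = 0.55), with no unadjusted p under 0.05, against 11.6% of all genes. The interaction of genotype and tumor, called for 0.0499% of genes, lay between -0.05 (C2) and 0.15 (C1qb), also with no unadjusted p under 0.05, against 8.53% of all genes. Serping1 gave the tightest limits, with a 95% interval from -0.06 to 0.12 for KO over WT lungs at 14 days. Cfb gave the widest, from -0.43 to 0.51 for the same comparison, from -0.79 to 0.23 for the response of WT lungs and from -0.61 to 0.85 for the interaction.

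KO replicate 2 stood apart among the 14-day KO lungs, with 105 FPKM of C4b where the others had at most 67.0 FPKM, and 38.2 FPKM of Cfb where the others had at most 20.03 FPKM, and the lowest summed neutrophil markers of the 6 lungs (54.99 FPKM, group median 303 FPKM), whose part was not tested. It was the highest of its group for 8 of the 9 genes, all but Serping1, with 44.2 FPKM of C1ra, 22.7 of C2, 208 of C3, 39.6 of C1qa, 27.5 of C1qb and 18.6 of C1qc. Without it the KO over WT value of C1qb in 14-day lungs went from 0.28 to 0.18, and it was 0.39 without KO replicate 3. Without it, C2 passed as lower in 14-day than in control KO lungs (log2 -0.33, SE 0.09, FDR = 0.20, less than 1.5-fold), and the KO over WT value at 14 days turned from 0.04 to -0.11 for C2 and from 0.04 to -0.21 for Cfb, neither called. Of the other complement genes in lungs, Hc passed between control lungs alone (75.9 to 89.0 FPKM in KO, 51.2 to 65.0 FPKM in WT, log2 0.43, SE 0.10, FDR = 0.21, less than 1.5-fold). Of 5 neutrophil markers tested, 2 in KO and 3 in WT hosts were called as higher in 14-day than in control lungs. Of 4 cardiac muscle markers, 3 were called as lower in KO than in WT lungs at 14 days. Of 8 fibroblast markers, Col1a1 was called as lower in 14-day than in control WT lungs (log2 -0.73, SE 0.20, FDR = 0.16) and as higher in KO than in WT lungs at 14 days (log2 0.65, SE 0.18, FDR = 0.21). Of 6 lung epithelium markers, Sftpb was called as lower in 14-day than in control WT lungs (log2 -0.26, SE 0.08, FDR = 0.21, less than 1.5-fold). General macrophage markers had 0 of 8 called in each lung comparison. Of 6 alveolar macrophage markers, Marco was called as lower in 14-day than in control WT lungs (log2 -1.42, SE 0.25, FDR = 0.093) and as higher in KO than in WT lungs at 14 days (log2 0.86, SE 0.24, FDR = 0.23), and Chil3 was called as higher in KO than in WT control lungs (log2 0.89, SE 0.20, FDR = 0.17). Their part in the complement values was not tested.

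The KO over WT difference was larger in tumors than in 14-day lungs for all 9 genes by fitted value, with differences from 0.29 (C1qa) to 1.23 (C2) and a median of 0.56, where 49.0% of all genes were above 0. The test of this difference passed for C1ra alone (log2 0.63, SE 0.15, FDR = 0.044), where 0.558% of 16115 genes passed in this direction. C2 (log2 1.23, SE 0.32) had an FDR of 0.080, Serping1 (log2 0.56, SE 0.17) of 0.17 and Cfb (log2 1.06, SE 0.37) of 0.23. The call of C1ra held in 7 of the 24 fits that left out a sample and was lost under RLE size factors, without a filter, with a replicate block and with limma at either pseudocount (0 genes called in each). DESeq2 called 2 genes, C1ra (adjusted p = 0.014) and C2 (adjusted p = 0.027). The share of all genes that DESeq2 called was not computed for this comparison.

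The 3 C1q genes lie within 2 Mb of Clic4, on the chromosome that carries the KO allele. Among 64 genes tested there in tumors, Fuca1 (log2 0.49, SE 0.09), C1qb and Wdtc1 (log2 0.53, SE 0.08) rose and Pnrc2 fell by 0.31 (SE 0.07), where 2.51% of all tested genes were called in either direction. In 14-day lungs 5 of 67 were higher and 3 lower, among them Sepn1 (log2 0.80, SE 0.07), E2f2, Paqr7 and Zdhhc18 as higher and Pnrc2 (log2 -0.75, SE 0.07), Zfp46 and Tceb3 as lower, while the C1q genes were not called, against 0.861% of all genes called. In control lungs 2 of 67 were higher, among them Sepn1, and 3 lower (Pnrc2, Zfp46 and Myom3), against 0.973% of all genes. Whether sequence that came with the KO allele bears on C1q levels was not tested.

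Genes with the most similar pattern were sought over all 32 samples, as the Pearson correlation of log2 CPM after the mean of each group was taken off, which leaves shared library and composition effects in. C1qa was most like C1qc (r = 0.90), Adgre1, the F4/80 marker of macrophages (r = 0.76), and Cfb (r = 0.75). C1qb was most like H2-Ab1 (r = 0.73) and Ciita (r = 0.72), a class II gene and the activator of class II genes, with r of 0.92 and 0.86 in tumors and of 0.27 and 0.46 in lungs. C1qa and C1qc correlated at 0.97 in tumors and 0.83 in lungs, and C1qa and C1qb at 0.94 in tumors and 0.35 in lungs. Lungs had few counts of these genes, 88 to 180 for C1qa and 69 to 132 for C1qb. Tumors had 391 to 1594 and 225 to 1351. The part of low counts in the lower r of lungs was not tested.

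C1ra was most like C1s1 (r = 0.78), the gene of the other C1 protease, Lamp2 (r = 0.75) and Calml4 (r = 0.74). Serping1 was most like Smpdl3a (r = 0.89), C1s1 (r = 0.88) and Fstl1 (r = 0.87). For Serping1 these values came from the tumors, with r of 0.95, 0.91 and 0.94 over 12 tumors and of 0.20, 0.30 and 0.15 over 20 lungs. C2 was most like Pla2g16 (r = 0.82) and Gbp8 (r = 0.80), a guanylate-binding protein gene, and then its neighbour Cfb (r = 0.79). Cfb was most like Gm12185 (r = 0.80), C2 (r = 0.79) and Cybb (r = 0.78). C3 stood apart from the C1q chains in tumors (r of -0.34 with C1qa over 12 tumors, but 0.57 over 20 lungs) and was most like Clip4 (r = 0.85), Mapk13 (r = 0.84) and St14, a protease of epithelial cells (r = 0.83). In lungs alone C3 had an r of 0.27 with Clip4, 0.41 with Mapk13 and 0.07 with St14. By rank (Spearman) over the 32 samples the correlation of C3 was lower, 0.56 with Clip4, 0.66 with Mapk13 and 0.41 with St14. WT tumor replicate 6 stood apart in C3, and its part in these values was not tested. C4b was most like Gm9938 (r = 0.72), Adgrd1 (r = 0.71) and 2610203C20Rik (r = 0.71). These values describe the samples and carry no test.

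Sequence next to the start was given in RefSeq (GRCm38.p6) for 4 of the 9 genes, C1qb, C1qc, C1ra and C3, as windows of 250 bases before and 50 after the start. It is shown for these genes because it was at hand, and its link to their levels was not tested. Both strands were searched for GAGGAA (the core bound by PU.1, a factor of myeloid cells), TTGCNNAA (C/EBP), TTCNNNGAA (the GAS element), the ISRE and the NF-kB motif. The stretches below start 250 bases before the RefSeq start and stop where that start or the GENCODE gene begins, with matches in capitals. C1qb is from chr4:136886201-136886450 and C1qc from chr4:136893066-136893164, both on the minus strand.
C1qb: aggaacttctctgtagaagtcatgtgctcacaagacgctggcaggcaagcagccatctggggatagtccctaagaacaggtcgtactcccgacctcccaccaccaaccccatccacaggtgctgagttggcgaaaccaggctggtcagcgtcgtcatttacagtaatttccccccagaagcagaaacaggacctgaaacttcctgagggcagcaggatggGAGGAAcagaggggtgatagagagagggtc
C1qc: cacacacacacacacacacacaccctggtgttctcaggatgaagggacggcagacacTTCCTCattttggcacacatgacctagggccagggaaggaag

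Both held GAGGAA on 1 strand or the other, at bases -30 to -25 of C1qb and -193 to -188 of C1qc, as did 28.3% of the 32851 RefSeq windows. C3, from chr17:57228137-57228386 on the minus strand, held no GAGGAA and held TTGCNNAA at bases -45 to -38, as did 10.8% of windows.
C3: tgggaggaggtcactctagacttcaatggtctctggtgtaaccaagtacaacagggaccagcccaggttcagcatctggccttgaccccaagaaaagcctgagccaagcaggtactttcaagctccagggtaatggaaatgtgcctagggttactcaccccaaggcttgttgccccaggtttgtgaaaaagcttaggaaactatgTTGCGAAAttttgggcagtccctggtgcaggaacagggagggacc

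In C1ra the matches lay after the start, at chr6:124512637-124512661 on the plus strand, bases 17 to 41, where TTGCNNAA (read on the other strand) and TTCNNNGAA are capitalised. TTCNNNGAA was found in 8.3% of windows, the ISRE in 3.44% and the NF-kB motif in 1.63%, the last 2 in none of the 4 genes. C1ra also held GAGGAA at bases 45 to 50, read on the other strand. A match of letters is no proof of a site, and none says nothing of a factor outside the window.
C1ra: TTATGCAAatgcttcaTTCCCTGAA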

How the data were processed

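RNA was sequenced from 32 samples of tumor or lung, as stranded, paired-end mRNA libraries. The authors aligned reads with STAR to GRCm38 and quantified genes with RSEM, and the deposited expected counts are whole numbers. The authors' deposited FPKM values are per transcript length and depth, and Rn7s1, Rn7s2 and Rn7sk took 58.1 to 70.2% of them, which lowers all other FPKM by an amount that differs between samples. Levels are FPKM. Tests were run on the expected counts in edgeR 4.0.16 (R 4.3.3, TMM, filterByExpr, quasi-likelihood), in 1 fit for the 12 tumors, 1 for the 20 lungs and 1 for the 24 samples at 14 days from both tissues, with Benjamini-Hochberg adjustment over all genes tested. Calls were at an FDR of 0.05 in tumors and 0.25 in lungs, as in the study, but without the study's fold limits of 2 in tumors and 1.5 in lungs, which are given beside the calls. SE is the log2 fold change divided by the root of F, and 95% intervals use the t quantile at edgeR's total degrees of freedom. All scripts were tested on simulated data.

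Alternatives were DESeq2 1.42.0, limma 3.58.1 on log2(FPKM + 1) or log2(FPKM + 0.1), RLE size factors, other filters, a replicate block and each sample left out. An offset for GC content (loess span 0.5) was added after seeing the data. Depth was 4446323 to 8318711 counts per sample. The 9 genes and all lists were chosen with earlier results of these data known. All 9 genes are named, other pathway genes and neighbours of Clic4 are named where they passed or their role is needed, marker and interferon lists are given as counts with a few members named, and the 3 most similar genes were ranked for each. Values of 1 gene of the pathway list and 1 neighbour of Clic4 are not reported here. Positions are from GENCODE M21, and promoters from RefSeq were given for 4 of the 9 genes.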

Additional observations from a re-analysis of the deposited data

Results flagged for a closer look

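In 5 of the 54 combinations of gene and group, 1 sample stood apart from the others by Dixon's test, which chance alone does in about 1 of 20 groups. C3 was at 307.63 FPKM in WT tumor replicate 6, where the next WT tumor had 134.61 FPKM. C4b was at 104.92 FPKM and Cfb at 38.23 FPKM in the 14-day KO lung of replicate 2, where the next lungs had 66.97 and 20.03 FPKM. Cfb was at 18.7 FPKM in control KO lung replicate 4, below the next lung at 27.64 FPKM. C1ra was at 30.04 FPKM in 14-day WT lung replicate 4, below the next lung at 34.12 FPKM.

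The KO over WT difference of C1ra was larger in tumors than in 14-day lungs by 0.63 on the log2 scale, by a test of the difference itself (edgeR, FDR = 0.044). The call held in 7 of 24 fits that left out a sample (FDR up to 0.092), and it was lost with a replicate block, under RLE size factors, without a filter and with limma.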

How the results depend on the processing

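In tumors of KO against WT hosts, 4 of the 9 genes were called, and 4 under RLE size factors, without a filter and with at least 10 counts in every sample. The count was 1 with limma on log2(FPKM + 1), 1 with limma on log2(FPKM + 0.1), 2 with a 2-fold limit, 3 with the GC offset, 6 with DESeq2 and 1 to 6 with a tumor left out. With a replicate block it was 6, C4b and Serping1 being added, and 5 with the GC offset and the block together. Shares over all tested genes were computed for the main fits and for DESeq2 between KO and WT tumors, but not for the other settings. Whether calls changed alike for all genes there was not tested. Same-numbered KO and WT tumors deviated from their group means with correlations of -0.23 to 0.09. KO tumors and 14-day KO lungs of the same number had correlations of 0.04 to 0.21, and 5 of 6 tumors were best matched by the lung of their own number, a hint from the data that the labels do not settle. WT tumors and lungs had -0.01 to 0.10, and 2 of 6. The tests across tissues treat the samples as independent, and the C1ra call was lost under the block. For tumor minus lung, 1 gene was called, against 0 under RLE size factors, no filter, the replicate block, the GC offset with the block and limma with either pseudocount, 2 with DESeq2 and 0 to 3 with a sample left out. In lungs, 0 genes were called in each comparison under every alternative other than the removal of 14-day KO lung replicate 2, which gave 0 to 1 called in the KO response. That removal also turned KO over WT lungs at 14 days to -0.11 for C2 and -0.21 for Cfb on the log2 scale, the lowest of ranges that reached 0.11 and 0.14 without replicate 6. Between tissues 5 genes were called under every alternative. The cause of these changes was not tested. Over 2118 refits of single genes the sign turned in 91, of which 89 were under 1 SE in both fits. C2 rested on 29 to 246 counts per tumor, the fewest of the 9.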

Other observations

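Ratios between the 3 C1q chains were looked at after the values were seen, and of the chains C1qb alone was called between tumors of KO and WT hosts. A higher ratio with C1qb in KO tumors was thus favoured by the choice, and the adjustment over 9 tests does not cover this. The 2 ratios with C1qb also share its values. The p values for tumors are therefore no independent support. The ratio of C1qb to C1qa in FPKM had a mean of 0.689 in KO tumors (0.589 to 0.802) and 0.574 in WT tumors (0.527 to 0.682), with p = 0.0087 by a two-sided exact permutation test and 0.049 after adjustment over 9 such tests. The ratio of C1qb to C1qc had means of 1.38 and 1.20 (exact permutation p = 0.011, adjusted 0.049), and that of C1qc to C1qa had means of 0.498 and 0.480 (exact permutation p = 0.46, adjusted 0.59). In 14-day lungs the ratio of C1qb to C1qa was 0.644 in KO and 0.604 in WT hosts (exact permutation p = 0.58, adjusted 0.60), and that of C1qb to C1qc was 1.60 and 1.35 (exact permutation p = 0.19, adjusted 0.30). With 4 control lungs a group, the ratio of C1qb to C1qc was 1.43 in KO and 1.13 in WT mice (exact permutation p = 0.17, adjusted 0.30). That of C1qb to C1qa was 0.705 in KO and 0.624 in WT mice (exact permutation p = 0.60, adjusted 0.60). The ratio of C1qc to C1qa was 0.406 in KO and 0.455 in WT lungs at 14 days (exact permutation p = 0.19, adjusted 0.30). In control lungs it was 0.496 and 0.554 (exact permutation p = 0.20, adjusted 0.30). A difference in these ratios between tumors and lungs was not tested.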
